A study of Mus musculus with 4 samples.

Results

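IL-10, its receptor and its regulators were described across hepatic CD8 T cells through 8 genes of the deposited expression table, out of 15367 gene symbols in all. They are the cytokine gene Il10, the receptor chain genes Il10ra and Il10rb, and the regulators Maf, Stat3, Socs3, Bhlhe40 and Nfil3, and all 8 had a row. They were picked by symbol because Il10 was higher in both columns labelled perforin knockout, so the values of that contrast are given here as a description, without a test of the 8 genes. The libraries came from CD8 T cells sorted from the livers of adult C57BL/6 mice labelled perforin knockout (Prf KO, 2 libraries) or wild type (WT, 2 libraries), all after 4 weeks of MCD feeding. There was no group on another diet. The series concerns diet-induced nonalcoholic steatohepatitis, a fatty liver disease with inflammation, and compares CD8 T cells with and without perforin, the pore-forming protein of cytotoxic granules. The design of the perforin allele, the gate of the sort and whether the 2 libraries of a group came from separate mice are not stated in the labels.

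IL-10 is a secreted cytokine that restrains inflammation. It binds a receptor made of a ligand-specific chain, encoded by Il10ra, and a chain shared with other cytokines of its family, encoded by Il10rb, and the kinases JAK1 and TYK2 on these chains activate the transcription factor STAT3. STAT3 induces Socs3, which encodes an inhibitor of cytokine receptor signalling. In T cells, c-MAF, the product of Maf, activates Il10 transcription, BHLHE40 represses it, and NFIL3 is a basic leucine zipper factor that regulates Il10 in helper T cells. CD8 T cells can make IL-10 at sites of inflammation, often together with interferon gamma.

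The upstream sequence of Socs3 is shown because that gene is the textbook feedback target of STAT3. The 250 bases before a RefSeq transcription start lie at chr11:117969367-117969616 on the minus strand of GRCm38.p6, and capitals mark the match to the STAT motif.
Socs3: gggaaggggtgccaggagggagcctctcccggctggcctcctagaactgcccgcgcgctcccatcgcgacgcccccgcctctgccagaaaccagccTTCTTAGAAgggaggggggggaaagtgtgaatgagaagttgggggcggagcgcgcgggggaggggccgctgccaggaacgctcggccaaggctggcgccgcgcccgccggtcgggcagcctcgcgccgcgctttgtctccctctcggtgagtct
The window held 1 match to TTCNNNGAA, a palindromic pattern bound by STAT dimers, at bases 154 to 146 before the start. The same pattern occurred in 7.02% of 32851 RefSeq promoter windows of 250 bases. RefSeq windows were matched for 3 of the 8 genes, and those of Stat3 and Nfil3 held 0 matches to it. Patterns for the other factors were also searched on both strands, and no match overlapped another. They were TGCTGAC for c-MAF, CACGTG for BHLHE40 and TTANGTAA for NFIL3, and they had 0 matches in the 3 windows, against 3.81%, 6.02% and 2.06% of all windows. The windows were rich in G and C, with 60.8% in Stat3, 71.6% in Socs3 and 81.6% in Nfil3, against a median of 52.4% over all windows. Il10, Il10ra, Il10rb, Maf and Bhlhe40 were not matched.

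Values are read as FPKM, fragments scaled to transcript length and library total, although the table names no unit. Prf1, the gene of perforin itself, had 95.4 and 98.7 FPKM in the knockout-labelled libraries, against 125 and 113 FPKM in the WT libraries, so its RNA was present in all 4. A value summed over a gene cannot show a short deletion, and the direction of every difference below rests on the labels. Knockout-labelled replicate 1 stood apart, with correlations to the other 3 of 0.914 to 0.924 across 9805 genes, which are not independent replicates, while the other 3 correlated at 0.961 to 0.969. The 4 columns summed to 334493 and 383498 in the knockout-labelled libraries and to 378364 and 392785 in WT. Depth in reads is unknown, because FPKM values do not carry it.

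Il10, the cytokine gene, had both values in the knockout-labelled libraries above both WT values. It had 16.2 and 11.8 FPKM in the knockout-labelled libraries, against 4.45 and 3.06 FPKM in WT. The groups did not overlap, and the lower of the knockout-labelled libraries was replicate 2. The means were 14.0 ± 3.12 FPKM in the knockout-labelled libraries and 3.76 ± 0.987 FPKM in WT (SD, n = 2 each), a ratio of 3.73. On the log2(FPKM + 1) scale the difference was 1.66 (SE 0.34). Replicate 1 exceeded replicate 2 by 0.43 log2 units in both groups. Ordered by level within a library, Il10 stood at place 3458 and 4523 of 15367 symbols in the knockout-labelled libraries, and at place 7045 and 7778 in WT. The median tested gene had 9.48 and 10.2 FPKM in the knockout-labelled libraries, against 10.3 and 10.1 FPKM in WT, so Il10 was above it in both knockout-labelled libraries and below it in both WT libraries.

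**Figure D1:**
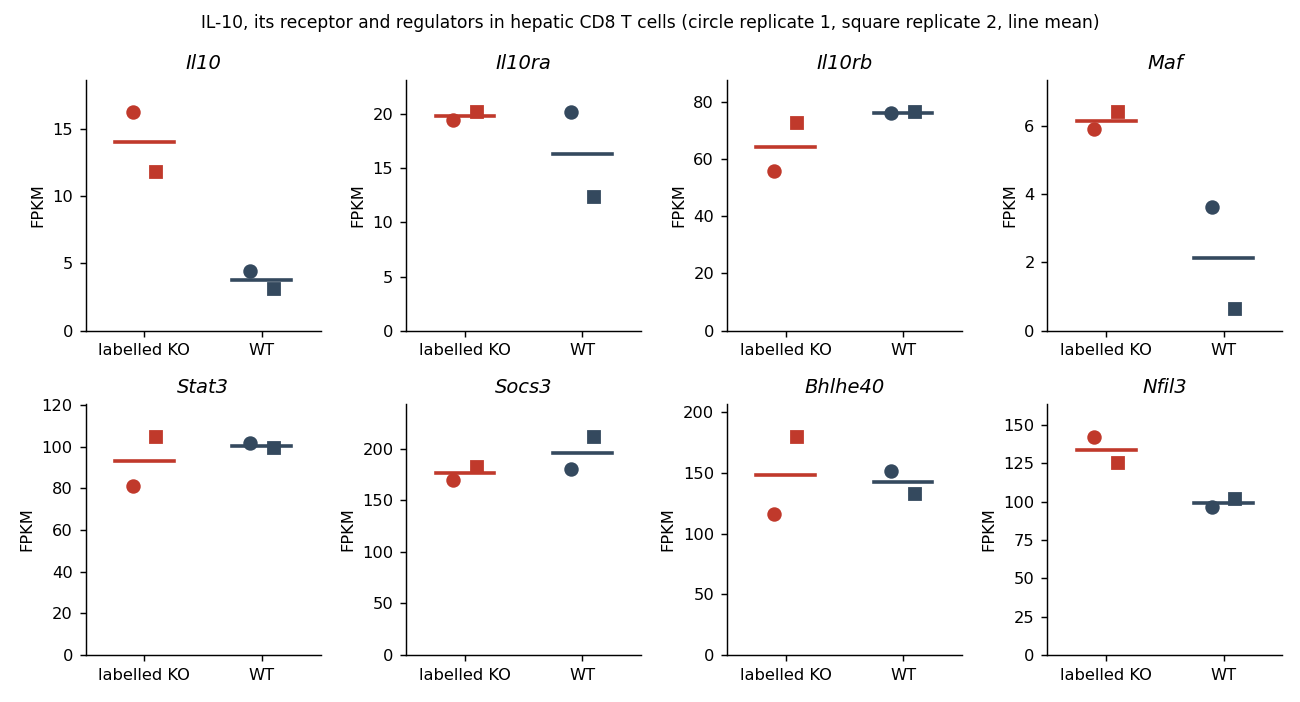
FPKM of the 8 genes in each library, with the knockout-labelled libraries on the left of each panel and WT on the right, circles for replicate 1, squares for replicate 2 and a line at the mean of 2 libraries. Il10, Maf and Nfil3 had both values labelled knockout above both WT values, Il10rb had both below, and the other 4 genes overlapped.

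Of the 8 genes, 3 were higher in both knockout-labelled libraries (Il10, Maf and Nfil3) and 1 was lower in both (Il10rb). Over all 9805 tested genes these shares were 13.9% and 21.9%. Over the whole table limma called 0 of the tested genes (0%) at an adjusted p under 0.05, while 470 genes (4.79%) had an unadjusted p under 0.05. The median log2 difference was 0.17 over the 8 genes and -0.080 over all tested genes. Nothing is read from these counts, because the contrast chose the list. Without knockout-labelled replicate 1, 5 of the 8 were higher than both WT libraries and 1 lower, where 31.8% and 34.4% of 9702 genes were.

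The receptor genes differed from each other in level far more than between groups. Il10ra, the ligand-binding chain, had 19.5 and 20.2 FPKM in the knockout-labelled libraries, against 20.2 and 12.4 FPKM in WT. WT replicate 2 was the low value and the other 3 were close together, so the groups overlapped (log2 difference 0.31, SE 0.31). Without WT replicate 2 the difference was -0.023.

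Il10rb, the shared chain, had 56.0 and 72.6 FPKM in the knockout-labelled libraries, against 76.3 and 76.4 FPKM in WT. Both WT values were above both others, and knockout-labelled replicate 1 was the lowest. The log2 difference was -0.26 (SE 0.25) with all libraries and -0.070 without that replicate. Il10rb shares exon sequence with the same-strand model Gm21970, so its value may include reads of both. In every library Il10ra was below Il10rb, at 34.9% and 27.8% of its FPKM in the knockout-labelled libraries and at 26.5% and 16.2% in WT. The groups did not overlap in this ratio, but knockout-labelled replicate 2 lay close to WT replicate 1.

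Maf, the activator, was the least abundant of the 8 in every library. It had 5.91 and 6.40 FPKM in the knockout-labelled libraries, against 3.62 and 0.639 FPKM in WT. Both values labelled knockout were above both WT values, and the 2 WT values differed by 1.496 log2 units, while those labelled knockout differed by 0.10. The log2 difference between groups was 1.38 (SE 0.52), and it was 0.63 without WT replicate 2 and 2.13 without WT replicate 1. Maf overlaps the antisense gene Gm15655, and the library kit does not mark strand, so reads of the pair cannot be told apart.

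The repressor gene Bhlhe40 was expressed at a high level in both groups and the groups overlapped. It had 116 and 179.7 FPKM in the knockout-labelled libraries, against 151 and 133 FPKM in WT, with a log2 difference of 0.029 (SE 0.28). The lowest and the highest of the 4 values were both in the knockout-labelled libraries. Its exons overlap 0610040F04Rik on the opposite strand.

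Nfil3 was the third gene whose groups did not overlap in the higher direction. It had 142 and 126 FPKM in the knockout-labelled libraries, against 96.7 and 102 FPKM in WT. Its means were 134 ± 11.9 FPKM in the knockout-labelled libraries and 99.3 ± 3.79 FPKM in WT (SD, n = 2 each), a ratio of 1.35. The log2 difference was 0.43 (SE 0.24), and it stayed between 0.34 and 0.52 when each library was left out in turn.

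The signalling genes downstream of the receptor were abundant and overlapped between groups. Stat3 had 81.4 and 105 FPKM in the knockout-labelled libraries, against 102 and 99.3 FPKM in WT. The low value was replicate 1 of the knockout-labelled libraries, and the log2 difference was -0.12 (SE 0.25) with it and 0.059 without it, and 0.064 with all libraries rescaled to CD8 T cell markers. The last exon of Stat3 overlaps that of Stat5a on the opposite strand.

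Socs3, the STAT3 target whose upstream sequence is printed above, had the highest mean of the 8. It had 170.2 and 182 FPKM in the knockout-labelled libraries, against 181 and 212 FPKM in WT. WT replicate 2 was the highest and the other 3 were close together. The log2 difference was -0.15 (SE 0.24), and 0.035 after rescaling to CD8 T cell markers.

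**Figure D2:**
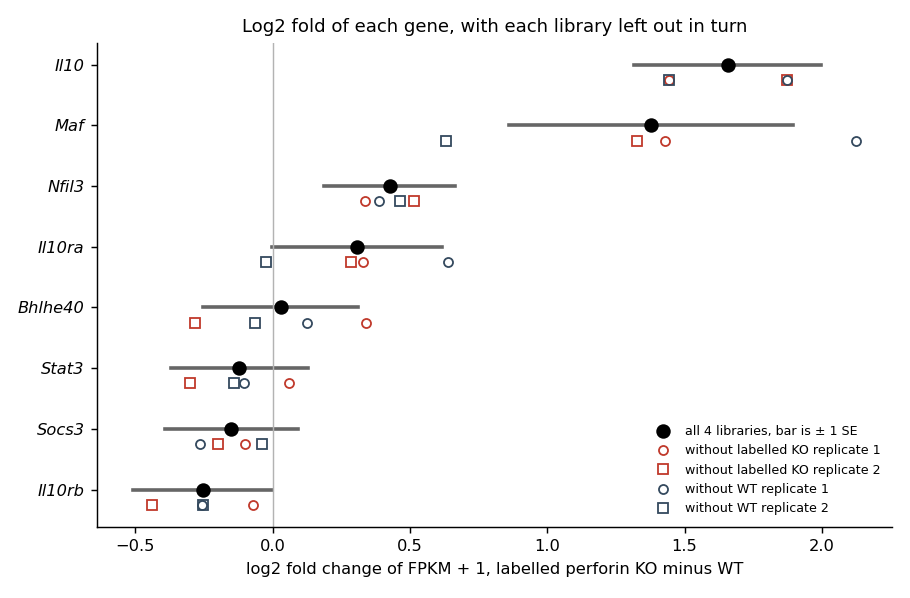
Log2 difference of FPKM + 1 (labelled knockout minus WT, horizontal axis) for the 8 genes, with a bar of 1 SE to each side, and below each the value with 1 library left out (red for a knockout-labelled library, blue for WT, circle replicate 1, square replicate 2). Il10 lay between 1.44 and 1.87 in the 4 refits and Maf between 0.63 and 2.13, while Il10ra, Bhlhe40 and Stat3 crossed 0.

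FPKM is scaled to transcript length, so levels can be compared between genes. Over the 4 libraries the mean was 186 FPKM for Socs3, 145 for Bhlhe40, 117 for Nfil3, 96.8 for Stat3, 70.3 for Il10rb, 18.1 for Il10ra, 8.88 for Il10 and 4.14 for Maf. The gaps from Stat3 to Il10rb and from Il10rb to Il10ra exceeded the ranges of both genes over the libraries. Socs3 and Bhlhe40 overlapped in range, as did Bhlhe40 and Nfil3, Nfil3 and Stat3, Il10ra and Il10, and Il10 and Maf. Within single libraries Socs3 was above Bhlhe40, Il10ra above Il10 and Il10 above Maf in 4 of 4, while Bhlhe40 was above Nfil3, and Nfil3 above Stat3, in 3 of 4.

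Ratios within a library do not depend on how the libraries were scaled. Il10 stood at 5.61% and 4.34% of the FPKM of Cd8a, the CD8 coreceptor, in the knockout-labelled libraries, against 1.58% and 1.06% in WT. It stood at 5.38% and 2.23% of Ifng, the interferon gamma gene, in the knockout-labelled libraries, against 1.04% and 0.609% in WT. The spread between the 2 knockout-labelled libraries was wider against Ifng than against Cd8a. Ifng itself was lowest in knockout-labelled replicate 1, which raises its ratio there. Against its own receptor gene Il10ra the Il10 level was 83.1% and 58.5% in the knockout-labelled libraries, and 22.1% and 24.7% in WT. The groups did not overlap in any of these 3 ratios, which share the Il10 values that chose the list.

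**Figure D3:**
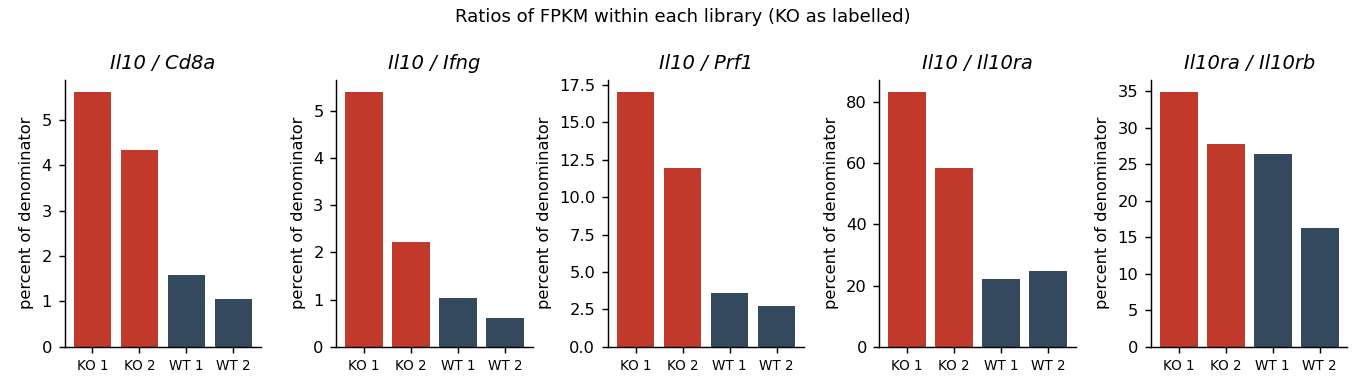
Ratio of FPKM within each library, as a percent of the denominator, for Il10 over Cd8a, Ifng, Prf1 and Il10ra, and for Il10ra over Il10rb, with the 2 knockout-labelled libraries (red) left of the 2 WT libraries (blue). Il10 over Prf1 was 17.0% and 11.95% in the knockout-labelled libraries and 3.57% and 2.70% in WT. Prf1 itself was lower in both knockout-labelled libraries, which raises this ratio there, and the ratio shares the Il10 values that chose the list.

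Rescaling to T cell genes changed the lean of the whole table, and the differences of the 8 genes shifted with it. With each library rescaled to the geometric mean of Cd3d, Cd3e, Cd3g, Cd8a and Cd8b1, the median of all tested genes moved up by 0.16 log2 units. The share of higher genes among those that did not overlap was then 72.3%, against 38.9% as deposited, and 24.5% and 9.4% of 9821 genes were higher and lower. The Il10 difference was 1.82 after this rescaling and 1.66 as deposited, and that of Maf 1.502 and 1.38. A rescaling of whole libraries shifts all genes nearly alike, so it does not test the differences relative to other genes. Il10rb overlapped between the groups after it, and Il10ra did not. Of the genes used for the rescaling, Cd3d and Cd3g were themselves lower in both knockout-labelled libraries.

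The genes nearest to Il10 in pattern were found by Euclidean distance between log2 values centred over the 4 libraries, among 9485 tested genes. The nearest was Rgs16, a regulator of G protein signalling, at a distance of 0.319, where the Il10 pattern itself had a length of 1.71. Rgs16 had 124 and 82.3 FPKM in the knockout-labelled libraries, against 33.4 and 33.0 FPKM in WT. The 5 nearest also held Mxra8 (0.375), Alox8 (0.379) and Arl10 (0.404), these 3 with 1.40 to 4.99 FPKM in the knockout-labelled libraries and 0 to 1.41 FPKM in WT. Alox8 was listed at 0 in both WT libraries. Among the other 7 genes, Maf was nearest, at place 106, followed by Nfil3 at 704 and Il10ra at 1114, with Bhlhe40 at 4000, Stat3 at 4875, Socs3 at 5053 and Il10rb at 6075. These distances are to the Il10 values that chose the list, over 4 libraries, so the order is a description and no separate result. Rgs16 and Mxra8 overlap genes on the opposite strand.

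Around the 8 genes, the wider pathway was described by 9 lists of 112 genes, of which 95 passed the filter on low values. Both knockout-labelled libraries exceeded both WT libraries for 20 of the 95 and lay below them for 12, and 0 passed limma's test over all genes. Over all tested genes 13.9% were higher in both and 21.9% lower, or 24.5% and 9.4% after the T cell rescaling, and the counts of each list below stand against these shares. Their median log2 difference was 0.056, against -0.080 for all tested genes. Without knockout-labelled replicate 1, 41 of 96 were higher than both WT libraries and 20 lower, where 31.8% and 34.4% of all genes were. With each library left out in turn, the median kept its sign in 3 of 8 lists and changed it in 5. The genes of these lists that are named below and passed the filter had limma adjusted p-values of 0.866 to 0.951, so none is called changed.

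Among 7 other ligands of the family, 1 was analysed. Il22, the gene of interleukin-22, was listed at 0 in both knockout-labelled libraries, against 0 in WT replicate 1 and 0.616 FPKM in WT replicate 2. The other 6 ligands of the list were not analysed here. Among receptors of the same structural class, 3 of 5 tested genes were lower in both knockout-labelled libraries and 0 higher, where 21.9% of all genes were lower. Their median log2 difference was -0.37, and it was -0.62 without knockout-labelled replicate 2, -0.22 without knockout-labelled replicate 1 and -0.19 after the T cell rescaling. Ifnar1, a type I interferon receptor chain, had 10.2 and 21.1 FPKM in the knockout-labelled libraries, against 25.7 and 21.2 FPKM in WT, so the replicate 2 values nearly tied. Il20rb, also counted as lower, had values close to the filter, at 0.497 and 1.98 FPKM in the knockout-labelled libraries, against 2.92 and 2.10 FPKM in WT. Ifngr2, an interferon gamma receptor chain, had 51.9 and 56.8 FPKM in the knockout-labelled libraries, against 70.7 and 70.3 FPKM in WT.

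JAK kinases and the other STAT genes had a median log2 difference of -0.013, and 1 of 10 was higher and 3 were lower in both. The median lay between -0.12 and 0.041 with 1 library left out and was 0.16 after the T cell rescaling, so its sign was not stable. Jak3, a kinase of the common gamma chain, had a log2 difference of 0.43 with overlapping groups, Stat2 0.42 and Stat4 -0.27. Cytokine signalling inhibitors had 1 of 12 higher and 1 lower, with a median of 0.079 that lay between -0.026 and 0.040 with 1 library left out. The filter was applied anew in each refit. All but the refit without WT replicate 1 tested 13 genes, with Socs2 added, so these medians are not over the same genes. Socs4 had 16.1 and 15.4 FPKM in the knockout-labelled libraries, against 5.58 and 13.2 FPKM in WT, and the phosphatase gene Ptpn1 had a log2 difference of -0.35.

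Receptors for cytokines that induce Il10 in T cells had a median log2 difference of 0.13, and 4 of 11 were higher and 1 was lower in both. The median was 0.0035 without WT replicate 1 and 0.20 without WT replicate 2. Il12rb2, a chain of the IL-12 receptor, had 7.36 and 9.05 FPKM in the knockout-labelled libraries, against 1.47 and 5.74 FPKM in WT. Il6st, the signal-transducing chain shared by the IL-6 and IL-27 receptors, had 42.6 and 23.4 FPKM in the knockout-labelled libraries, against 22.4 and 21.8 FPKM in WT. The replicate 1 value labelled knockout was the one that stood apart for Il6st.

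Other transcription factors of Il10 had a median log2 difference of 0.068, and 6 of 25 were higher and 1 was lower in both. The median lay between -0.027 and 0.15 with 1 library left out. The AP-1 gene Jund had 113 and 45.8 FPKM in the knockout-labelled libraries, against 30.4 and 44.6 FPKM in WT, so only replicate 1 was far from WT. Dbp, a basic leucine zipper factor that binds the same kind of site as NFIL3, had 15.4 and 7.78 FPKM in the knockout-labelled libraries, against 4.64 and 5.84 FPKM in WT. Eomes, a T-box factor of effector and memory CD8 T cells, had a log2 difference of 0.43.

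Coinhibitory genes often found with Il10 in T cells had differences of both signs. Havcr2, which encodes TIM-3, had 16.2 and 16.6 FPKM in the knockout-labelled libraries, against 10.9 and 4.15 FPKM in WT. Lag3 had 20.4 and 16.7 FPKM in the knockout-labelled libraries, against 15.3 and 7.78 FPKM in WT. Ctla4 was lower in both, with 28.7 and 42.9 FPKM in the knockout-labelled libraries, against 56.4 and 64.5 FPKM in WT. Over the list 2 of 7 that passed the filter were higher and 1 was lower in both. The median log2 difference was -0.046, between -0.16 and 0.18 with 1 library left out and 0.14 after the T cell rescaling.

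Genes that respond to STAT3 or IL-10, mostly known from macrophages, had a median log2 difference of 0.12, and 4 of 20 were higher and 2 were lower in both, where 13.9% and 21.9% of all genes were. The median was -0.063 without WT replicate 1 and -0.016 without knockout-labelled replicate 2, so its sign rested on single libraries. Hmox1, the haem-degrading enzyme, had 54.5 and 44.5 FPKM in the knockout-labelled libraries, against 29.7 and 31.2 FPKM in WT. Il1rn, the IL-1 receptor antagonist gene, had 31.8 and 16.3 FPKM in the knockout-labelled libraries, against 15.3 and 8.06 FPKM in WT. Cebpb had a log2 difference of 0.82 with overlapping groups. RNA-binding proteins that can act on Il10 mRNA had 2 of 8 higher and 0 lower in both, namely Pcbp1 (log2 difference 0.54) and Elavl1 (0.43), and Khsrp stood at 0.13 with overlapping groups. Il12rb2, Dbp, Jund, Eomes, Cebpb, Pcbp1, Elavl1 and Khsrp overlap a gene on the opposite strand, and Jak3 and Stat4 share exon sequence with another gene on the same strand, so their values are uncertain.

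**Figure D4:**
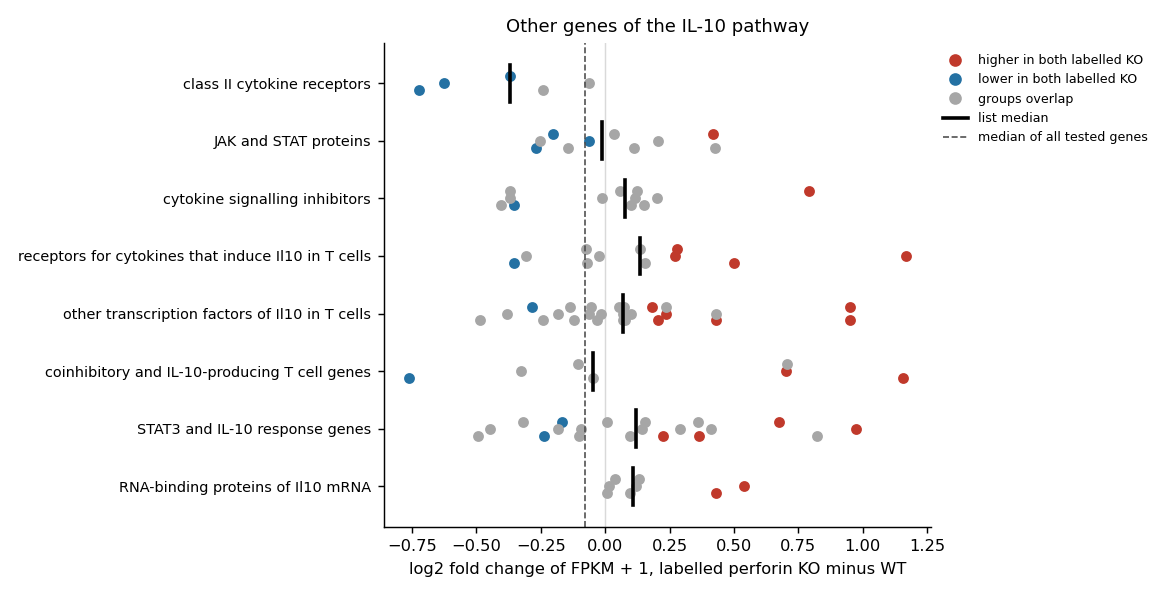
Log2 difference of FPKM + 1 (labelled knockout minus WT, horizontal axis) for the tested genes of 8 pathway lists, coloured by whether both knockout-labelled libraries lay above or below both WT libraries, with the list median as a black bar and the median of all tested genes as a dashed line. Receptors of the interferon and IL-20 class had a median of -0.37 and the other list medians lay between -0.046 and 0.13, of which 5 changed sign with 1 library left out.

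Il10 is also made by other cells of the liver, so marker levels were set beside it. In a bulk library more cells of a type and more RNA per cell cannot be told apart. The 5 CD8 T cell markers summed to 1736 and 1511 FPKM in the knockout-labelled libraries, against 1670.3 and 1730.0 FPKM in WT, with 0 of 5 at 0 in any library. Cd3d and Cd3g were lower in both knockout-labelled libraries, with log2 differences of -0.37 and -0.62, while Cd8a, Cd8b1 and Cd3e overlapped. Foxp3, which defines regulatory T cells, was at or near 0 in all 4 libraries, with a highest value of 0.0107 FPKM in WT replicate 1. Cd4 had 0 and 1.505 FPKM in the knockout-labelled libraries, against 0.0125 and 0.579 FPKM in WT. Il2ra and Ikzf2 of the same list were above 0 in every library and lower in both knockout-labelled libraries. Il2ra had 2.04 and 3.63 FPKM there, against 4.25 and 3.79 FPKM in WT. Ikzf2 had 1.47 and 1.96 FPKM there, against 2.13 and 2.31 FPKM in WT. The 5 markers of regulatory and CD4 T cells summed to 15.6 and 28.2 FPKM in the knockout-labelled libraries, against 12.5 and 31.6 FPKM in WT, most of it Cd40lg. The 8 B cell markers summed to 25.4 and 69.6 FPKM in the knockout-labelled libraries, against 50.9 and 53.8 FPKM in WT.

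Among macrophage and Kupffer cell markers Lyz2, the lysozyme gene, made up most of the sum, with 1508 and 2391 FPKM in the knockout-labelled libraries, against 2387 and 2510.5 FPKM in WT. The other 13 markers summed to 176 and 83.2 FPKM in the knockout-labelled libraries, against 85.3 and 66.9 FPKM in WT. Knockout-labelled replicate 1 was the highest, and knockout-labelled replicate 2 and WT replicate 1 were close to each other. The defining Kupffer cell genes Clec4f and Timd4 had 1.98 and 0.648 FPKM in knockout-labelled replicate 1 and were both at 0 in replicate 2, against 0.0334 and 0 FPKM in WT replicate 1 and 0 for both in WT replicate 2. Both genes were under the filter on low values. Other genes of the list differed: Marco had 1.63 and 0 FPKM in the knockout-labelled libraries, against 0 and 0.594 FPKM in WT. Cd68 had 8.30 and 11.8 FPKM in the knockout-labelled libraries, against 14.8 and 7.85 FPKM in WT. Csf1r, the macrophage growth factor receptor, had 38.2 and 24.3 FPKM in the knockout-labelled libraries, against 17.1 and 17.1 FPKM in WT, and overlaps Hmgxb3. Of the 14 markers, 0 and 4 were at 0 in the knockout-labelled libraries, and 5 and 3 in WT.

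Dendritic cell markers other than H2-Ab1 summed to 20.9 and 26.2 FPKM in the knockout-labelled libraries, against 34.8 and 20.1 FPKM in WT, and H2-Ab1 itself had 412 and 651 FPKM in the knockout-labelled libraries, against 1291 and 592 FPKM in WT. The 6 NK cell markers, which include the T cell gene Eomes, summed to 18.0 and 16.7 FPKM in the knockout-labelled libraries, against 13.7 and 11.7 FPKM in WT. Without Eomes the other 5 summed to 3.95 and 4.95 FPKM in the knockout-labelled libraries, against 4.58 and 2.11 FPKM in WT, and the groups overlapped. The 9 neutrophil markers summed to 106 and 143 FPKM in the knockout-labelled libraries, against 229 and 242 FPKM in WT. The 10 endothelial markers summed to 291 and 68.8 FPKM in the knockout-labelled libraries, against 148 and 32.4 FPKM in WT, with replicate 1 above replicate 2 in both groups. The same order held for Il10, for the macrophage markers without Lyz2 and for the NK cell markers with Eomes. It did not hold for the CD8 T cell, regulatory and CD4 T cell, B cell, dendritic cell, neutrophil or hepatocyte markers. Nor did it hold for the macrophage markers with Lyz2 or the NK cell markers without Eomes. Over 9805 genes, deviations of same-numbered libraries from their group means correlated at 0.068. Hepatocyte markers summed to 11.3 and 1.06 FPKM in the knockout-labelled libraries, against 1.78 and 2.81 FPKM in WT. The part of these cells in the Il10 values was not tested.

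**Figure D5:**
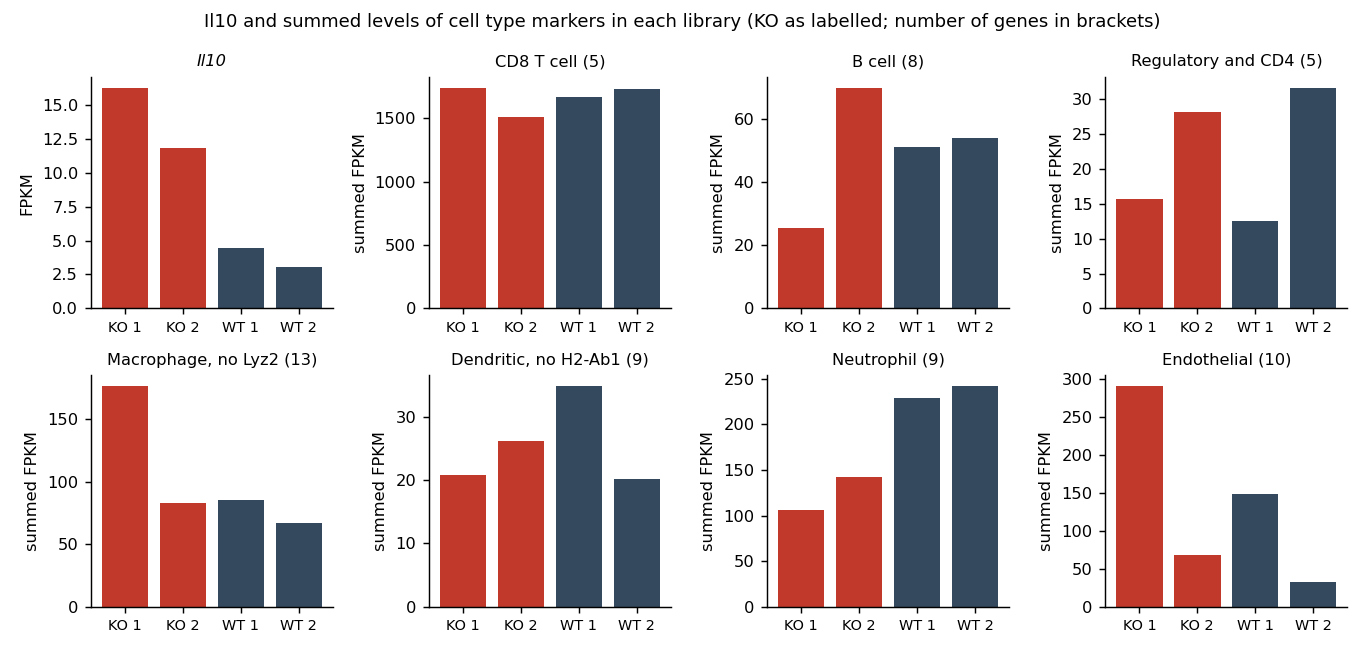
FPKM of Il10 and summed FPKM of marker genes in each library, with the 2 knockout-labelled libraries (red) left of the 2 WT libraries (blue), and Lyz2 and H2-Ab1 left out of their sums. Neutrophil sums were lower in both knockout-labelled libraries, and the macrophage and endothelial sums were highest in knockout-labelled replicate 1.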

How the data were processed

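RNA-seq libraries (TruSeq RNA kit, per the labels' protocols) came from 2 samples labelled perforin knockout and 2 WT samples, grouped by their titles. The submitters' processing notes name Bowtie 0.12.2 and mm8 without saying what each was used for. The deposited table gives no unit. Its values were read as FPKM made by the authors, since they are not whole numbers, do not sum to a common total and reach lower minima in longer transcripts. No counts or depths can be recovered from them, and no interval for counting error was computed.

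Values were analysed as log2(FPKM + 1) in R 4.3.3 with limma 3.58.1 (moderated test with intensity trend, two-sided, Benjamini-Hochberg over all tested genes, threshold 0.05). The filter kept 9805 genes whose mean FPKM reached 1, and differences on this scale understate the change of low genes. The smallest two-sided p of an exact permutation test is 0.333 with 2 libraries a group, so none is quoted. P-values measure the spread between these libraries, which may be technical. The procedure was tested on simulated data, where it recovered 21.4% of 2-fold changes and 84.6% of 4-fold changes of FPKM + 1. For low genes these are larger changes of FPKM itself. The noise was drawn from the variances that limma fitted to these data. The simulated libraries had independent noise and none stood apart, unlike knockout-labelled replicate 1 here.

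The 8 genes and the lists were chosen with earlier results of these data known. Named genes are the 8, Prf1, up to 3 genes of each pathway list with the smallest unadjusted p, the 5 nearest to Il10 without predicted models, pseudogenes and variable segments, and up to 2 markers of a list with the highest mean. A few marker genes beyond these (Foxp3, Cd4, Ikzf2, Clec4f, Timd4, Marco, Cd68, Cd3d, Cd3g), and Cd8a and Ifng as denominators, were named after their values were seen. Not every gene under this rule is described, and 1 of the 5 nearest is not reported here. Promoter windows are RefSeq's for GRCm38.p6, and overlapping genes are from GENCODE M21, both a later build than mm8. The alternatives were the replicate number as a block, each library left out, other filters, pseudocounts and scalings, no trend and robust moderation.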

Additional observations from a re-analysis of the deposited data

How the results depend on the processing

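Under 15 alternatives (14 for Maf, which a filter of a mean of at least 5 removed), 113 of 119 values of the 8 genes kept their sign. The replicate block, the other filters, no trend and robust moderation leave each difference unchanged, so their values kept the sign by design. Il10 ranged from 1.11 (pseudocount 5) to 1.88 (pseudocount 0.1) and from 1.44 to 1.87 with 1 library left out. Maf was 0.68 with a pseudocount of 5 and 1.91 with 0.1. The other 6 values changed sign: Il10ra was -0.023 and Bhlhe40 -0.065 without WT replicate 2, Bhlhe40 was -0.28 without knockout-labelled replicate 2, Stat3 was 0.059 without knockout-labelled replicate 1, and after rescaling to 5 CD8 T cell markers Stat3 was 0.064 and Socs3 0.035. With each library left out, Il10ra ranged from -0.023 to 0.64, Stat3 from -0.30 to 0.059 and Bhlhe40 from -0.28 to 0.34. The cause was not tested. Limma called 0 of all genes in the main analysis and under each alternative except 2 of the refits with a library left out, which gave 0 to 2 calls: 2 without WT replicate 1 and 2 without WT replicate 2. With the replicate number as a block it also called 0 genes (Il10 1.66). Libraries with the same number deviated from their group means with a correlation of 0.068 over 9805 genes, so the numbers were not taken as pairs. With 2 libraries a group the SE of the 8 genes was 0.24 to 0.52 log2 units, and differences below that were within the error. Larger differences can be too, because a 95% interval reaches further than 1 SE to each side. The SE also takes no account of the choice of the list by this contrast.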
